A study of Solanum lycopersicum with 36 samples.

Results

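Catalases, ascorbate peroxidases and superoxide dismutases were followed in tomato leaf through 1 day as 10 genes, of which 3 were listed as catalases, 4 as ascorbate peroxidases and 3 as superoxide dismutases. A gene was a member when the core of its identifier, without a prefix or a version suffix, was in that list, and all 10 were found among 34075 identifiers in the deposited count tables. Neither the tables nor the reference gene table pairs these identifiers with names, so the classes are those of the list, and no form or cell compartment is assigned to a gene. The plants were tomato (Solanum lycopersicum) of genotype HeinZ 1706, kept at 25 °C in cycles of 12 h light and 12 h dark and harvested as leaves at 4 weeks of age. The groups were 6 times of day, named Light or Dark with the hours since that phase began: Light 0 h, 4 h and 8 h, and Dark 0 h, 4 h and 8 h. Each time had 3 libraries of polyadenylated RNA (mRNA) and 3 libraries of GMUCT, which reads the 5' ends of uncapped and cleaved transcripts in total RNA, so 36 libraries in all. All groups carried the same light regime, and a clock-driven change and a direct response to light cannot be told apart. The labels do not say whether each replicate came from its own plants. The p-values therefore reflect only the variation among these libraries, which may be technical.

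These enzymes handle reactive oxygen in turn. Superoxide dismutases convert superoxide, which photosynthetic electron transport releases in chloroplasts, to hydrogen peroxide. Ascorbate peroxidases reduce hydrogen peroxide to water with ascorbate, and catalases, which work in peroxisomes and need no reductant, break it down to water and oxygen. In leaves, the oxidation of glycolate during photorespiration is a main source of the hydrogen peroxide that catalases remove, and plant catalase genes are known for daily expression that peaks at different times for different copies.

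Counts in genes summed to between 6632784 and 27126312 per mRNA library and to between 15739253 and 20581411 per GMUCT library, and the 10 genes together took 0.231 to 0.428% of the mRNA counts and 0.483 to 0.842% of the GMUCT counts. Levels are given as CPM, counts scaled to a library size that was adjusted by a TMM scaling factor found within each assay. All 10 genes passed the filter on low counts in both assays. The catalase Solyc04g082460 had the fewest, between 35 and 289 per mRNA library and between 64 and 152 per GMUCT library. CPM values depend on transcript length, so levels are compared between times and never between genes. Changes are log2 changes with their standard error (SE), and a call is an adjusted p under 0.05. In bulk leaf, fewer cells of a type and less RNA per cell cannot be told apart. A CPM is relative to the other genes in the libraries, not an amount per cell. The tissue label was not checked against marker genes, since no identifier could be matched to a named gene. Reads placed at several positions, which were not counted in genes, made up 2.11 to 3.52% of the mRNA reads and 8.60 to 40.2% of the GMUCT reads.

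In mRNA, all 10 genes changed among the 6 times. Over all 19711 genes tested the same test called 70.9%. The smallest adjusted p was 1.81e-08 for the catalase Solyc02g082760 and the largest was 0.0138 for the superoxide dismutase Solyc11g066390 (edgeR quasi-likelihood F-test with Benjamini-Hochberg adjustment). The call for Solyc11g066390 was lost without mRNA Dark 0 h replicate 1 (adjusted p of 0.0590) and without the whole Dark 0 h group (0.180), and the other 9 kept theirs in both cases. In GMUCT, 5 genes changed among the 6 times, against 58.4% of all genes. They were the catalases Solyc12g094620 and Solyc02g082760, the ascorbate peroxidases Solyc06g005160 and Solyc11g018550, and the superoxide dismutase Solyc11g066390. That last call (edgeR adjusted p = 0.0405) was lost without each of GMUCT Dark 4 h replicates 1 and 3, GMUCT Dark 8 h replicates 1 and 2, GMUCT Light 0 h replicate 1, GMUCT Light 4 h replicates 1 and 3 and GMUCT Light 8 h replicates 1, 2 and 3 (adjusted p of 0.0512 to 0.0863) and also with a replicate block (0.0582). The GMUCT to mRNA ratio, tested through an assay-by-time term, changed among the times for 6 genes, against 54.1% of all genes. These were the 4 ascorbate peroxidases and the superoxide dismutases Solyc11g066390 and Solyc06g048410, and none of the 3 catalases passed (smallest edgeR adjusted p = 0.0590, for Solyc12g094620). Solyc12g094620 did pass in 9 of 41 alternatives, among them DESeq2 (0.0240), a replicate block (0.0483) and the removal of any 1 of 7 libraries, which were mRNA Dark 8 h replicate 1, GMUCT Dark 0 h replicate 2, GMUCT Dark 8 h replicate 3, GMUCT Light 0 h replicates 1, 2 and 3 and GMUCT Light 4 h replicate 1 (adjusted p of 0.0242 to 0.0496). The members' counts in GMUCT and in the ratio were thus near the shares of all genes.

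The times at which the mRNAs moved were spread over the whole day. Of 60 comparisons of a gene between consecutive times, 34 were called in mRNA, 6 in GMUCT and 11 in the ratio, and 19, 2 and 9 of these kept their call under every alternative tried. From Light 0 h to Light 4 h, 7 mRNAs changed against 47.2% of all genes, 5 up and 2 down. From Light 4 h to Light 8 h there were 5 against 16.7%, 2 up and 3 down, and 3 remained called without mRNA Light 4 h replicate 1 or 3. From Light 8 h to Dark 0 h there were 8 against 43.7%, 2 up and 6 down. Into the dark, from Dark 0 h to Dark 4 h, there were 6 against 23.7%, 4 up and 2 down. From Dark 4 h to Dark 8 h there were 5 against 15.4%, 2 up and 3 down, and 3 without mRNA Dark 4 h replicate 3. From Dark 8 h to Light 0 h all 3 called mRNAs rose, against 5.92% of all genes in either direction, and 1 was called in a fit of only these 2 times. Among them, Solyc11g018550 changed by 0.61 ± 0.16 (SE, edgeR adjusted p = 0.0279), a call lost without each of mRNA Dark 8 h replicates 1 and 3, mRNA Light 0 h replicates 1, 2 and 3 and mRNA Light 4 h replicate 3 (adjusted p of 0.0507 to 0.134) and also in a fit of only these 2 times (0.109). Dark 0 h was the time of the lowest mRNA level for 5 of the 10 genes and for 18.4% of all genes, and Light 4 h was the time of the highest for 4 of the 10 and for 20% of all genes. The median range over the day, from the lowest to the highest group mean, was 1.10 in log2 CPM for the 10 mRNAs and 1.27 for all genes, and 0.76 and 0.98 in GMUCT.

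Times 12 h apart gave 20 called mRNA comparisons of 30. At Dark 0 h against Light 0 h there were 6, against 36.9% of all genes, 1 up and 5 down. At Dark 4 h against Light 4 h there were 7, against 45.7%, 3 up and 4 down, and at Dark 8 h against Light 8 h there were 7, against 50.1%, 2 up and 5 down. The GMUCT calls were 3, 3 and 0 for these pairs, against 46.5, 33.3 and 32.8% of all genes. The first of these GMUCT counts fell to 1 without Light 0 h replicate 1 or 2 or Dark 0 h replicate 2, and the count of 0 with edgeR was 1 at an unadjusted p under 0.05 and 0 with DESeq2. The catalases Solyc12g094620 and Solyc02g082760 and the superoxide dismutase Solyc06g048410 were called in mRNA in all 3 pairs, and so was the ascorbate peroxidase Solyc11g018550. For Solyc02g082760 the change at Dark 8 h against Light 8 h was -0.44 ± 0.16 (SE, edgeR adjusted p = 0.0254), a call lost without each of mRNA Dark 8 h replicates 1 and 3 and mRNA Light 8 h replicates 1 and 3 (adjusted p of 0.0684 to 0.106) and also with no filter on low counts (0.0573) and in a fit of only these 2 times (0.0526). For Solyc12g094620 the change at Dark 4 h against Light 4 h was 0.86 ± 0.27 (SE, edgeR adjusted p = 0.0129), a call lost without mRNA Light 4 h replicate 3 (adjusted p of 0.0586). For Solyc11g018550 the change at Dark 0 h against Light 0 h was -0.48 ± 0.16 (SE, edgeR adjusted p = 0.0238), a call lost without each of mRNA Dark 0 h replicates 1 and 3 and mRNA Light 0 h replicates 1 and 3 (adjusted p of 0.0561 to 0.119) and also with no filter on low counts (0.0522) and in a fit of only these 2 times (0.0986). Its change at Dark 4 h against Light 4 h was 0.42 ± 0.16 (SE, edgeR adjusted p = 0.0409), a call lost without each of mRNA Dark 0 h replicate 1, mRNA Dark 4 h replicates 2 and 3, mRNA Light 0 h replicate 3, mRNA Light 4 h replicates 2 and 3 and mRNA Light 8 h replicates 1 and 3 (adjusted p of 0.0582 to 0.214) and also with relative log expression scaling (0.0537) and with no filter on low counts (0.0798). For Solyc06g048410 the change at Dark 8 h against Light 8 h was -0.41 ± 0.16 (SE, edgeR adjusted p = 0.0382), a call lost without each of mRNA Dark 8 h replicates 1 and 2, mRNA Light 0 h replicate 2, mRNA Light 4 h replicates 1, 2 and 3 and mRNA Light 8 h replicates 1, 2 and 3 (adjusted p of 0.0520 to 0.161) and also with no filter on low counts (0.0772), with a replicate block (0.0565) and in a fit of only these 2 times (0.0653). Across the 3 pairs, 13 of the 20 calls held under every alternative tried.

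**Figure D1:**
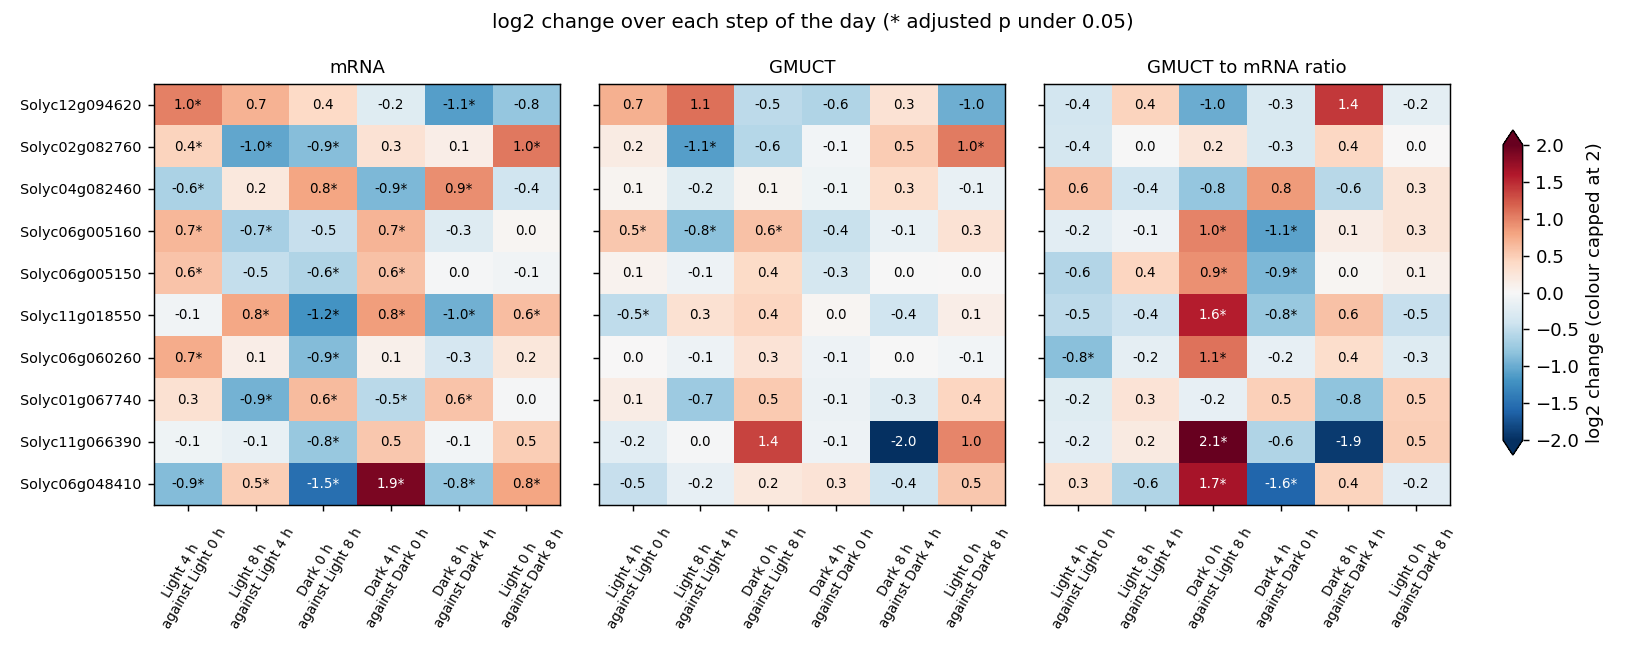
Log2 change of each gene (rows) over the 6 steps between consecutive times (columns) in mRNA, in GMUCT and in the GMUCT to mRNA ratio, with colour from blue (lower) to red (higher) and an asterisk where the adjusted p is under 0.05. The mRNA panel holds 34 asterisks over all steps, and the ratio panel holds 10 of its 11 in the steps into and out of Dark 0 h.

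Among the superoxide dismutases, Solyc06g048410 had the widest mRNA range, with a fall and a return around the onset of darkness. Its mRNA stood at 1050.5, 1043 and 991 CPM in replicates 1 to 3 at Light 0 h, at 553, 575 and 554 CPM at Light 4 h and at 813, 822 and 744 CPM at Light 8 h. It was 281, 321 and 236 CPM at Dark 0 h, 1197, 980.1 and 926 CPM at Dark 4 h and 517, 586 and 686 CPM at Dark 8 h. All 3 libraries at Dark 0 h lay below every other mRNA library, and the replicates at Light 0 h and at Dark 4 h were the highest. The log2 change was -0.87 ± 0.16 (SE, edgeR adjusted p = 0.000190) from Light 0 h to Light 4 h. It was -1.50 ± 0.16 (SE, edgeR adjusted p = 6.24e-07) from Light 8 h to Dark 0 h. From Dark 0 h to Dark 4 h the mRNA rose by 1.89 ± 0.16 (SE, edgeR adjusted p = 3.34e-07) on the log2 scale, which is 3.70-fold. It then fell to Dark 8 h, with a change of -0.79 ± 0.16 (SE, edgeR adjusted p = 0.00235). In none of these pairs of times did the 2 groups overlap. It rose again from Dark 8 h to Light 0 h, by 0.79 ± 0.16 (SE, edgeR adjusted p = 0.00470), a call lost in a fit of only these 2 times (adjusted p of 0.0686). The rise from Light 4 h to Light 8 h was smaller, 0.50 ± 0.16 (SE, edgeR adjusted p = 0.0368), a call lost without each of mRNA Dark 0 h replicate 1, mRNA Dark 4 h replicates 2 and 3, mRNA Light 0 h replicate 3, mRNA Light 4 h replicates 1, 2 and 3 and mRNA Light 8 h replicates 1, 2 and 3 (adjusted p of 0.0559 to 0.143) and also with relative log expression scaling (0.0562), with no filter on low counts (0.0987) and with a replicate block (0.0554).

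Between times 12 h apart Solyc06g048410 changed in both directions. The mRNA was lower at Dark 0 h than at Light 0 h, with a log2 change of -1.88 ± 0.16 (SE, edgeR adjusted p = 1.02e-07). It was higher at Dark 4 h than at Light 4 h, by 0.88 ± 0.16 (SE, edgeR adjusted p = 0.000174). Its GMUCT level ranged from 512 ± 52.2 CPM (SD, n = 3) at Light 8 h to 790.4 ± 147 at Light 0 h and was not called among the times (edgeR adjusted p = 0.275). At Dark 0 h, where the mRNA was lowest, GMUCT replicates stood at 806, 477 and 489.6 CPM, and at Light 8 h at 512, 565 and 460.3. These GMUCT groups overlapped, unlike those of the mRNA. The GMUCT to mRNA ratio was higher at Dark 0 h than at Light 8 h by 1.65 ± 0.31 (SE, edgeR adjusted p = 0.000109) in log2. It was lower at Dark 4 h than at Dark 0 h, with a change of -1.58 ± 0.31 (SE, edgeR adjusted p = 0.000422).

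The superoxide dismutase Solyc01g067740 moved against Solyc06g048410 at several steps. Its mRNA was 56.9, 52.9 and 54.0 CPM at Light 4 h, 28.6, 28.9 and 27.6 CPM at Light 8 h and 44.3, 41.9 and 46.4 CPM at Dark 0 h. It was 29.4, 36.6 and 25.3 CPM at Dark 4 h, 41.0, 39.8 and 54.9 CPM at Dark 8 h and 42.3, 48.5 and 42.2 CPM at Light 0 h. Light 8 h was the lowest time and did not overlap Light 4 h or Dark 0 h. The log2 change was -0.95 ± 0.15 (SE, edgeR adjusted p = 0.000187) from Light 4 h to Light 8 h. Into Dark 0 h it was 0.64 ± 0.15 (SE, edgeR adjusted p = 0.00217). The following fall to Dark 4 h was -0.54 ± 0.15 (SE, edgeR adjusted p = 0.0155), a call lost without mRNA Dark 4 h replicate 3 (adjusted p of 0.0659) and also in a fit of only these 2 times (0.0708). The rise to Dark 8 h was 0.57 ± 0.15 (SE, edgeR adjusted p = 0.0164), a call lost without each of mRNA Dark 4 h replicates 1 and 3 and mRNA Dark 8 h replicate 3 (adjusted p of 0.0509 to 0.0892) and also in a fit of only these 2 times (0.123). At times 12 h apart it was lower at Dark 4 h than at Light 4 h (-0.84 ± 0.15, SE, edgeR adjusted p = 0.000178) and higher at Dark 8 h than at Light 8 h (0.67 ± 0.15, SE, edgeR adjusted p = 0.00121). In GMUCT it ranged from 151 ± 33.4 CPM (SD, n = 3) at Light 8 h to 249.8 ± 32.8 at Light 4 h, with no call among the times (edgeR adjusted p = 0.285).

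The superoxide dismutase Solyc11g066390 declined in mRNA from the light into Dark 0 h. Replicates were 19.1, 14.3 and 14.8 CPM at Light 0 h, 18.8, 13.6 and 8.93 CPM at Light 8 h and 5.70, 9.62 and 9.15 CPM at Dark 0 h. Dark 0 h lay below Light 0 h in all replicates, and Light 8 h overlapped it, since the third Light 8 h replicate was low. The log2 change from Light 0 h to Dark 0 h was -0.98 ± 0.24 (SE, edgeR adjusted p = 0.00319). The change from Light 8 h was -0.75 ± 0.24 (SE, edgeR adjusted p = 0.0147), a call lost without each of mRNA Dark 0 h replicate 1 and mRNA Light 8 h replicate 1 (adjusted p of 0.101 to 0.181) and also in a fit of only these 2 times (0.0853). Its GMUCT level was uneven between replicates, with 26.8, 17.9 and 103 CPM at Dark 0 h, 80.5, 16.4 and 39.7 CPM at Dark 4 h and 8.72, 9.86 and 15.9 CPM at Dark 8 h. The third replicate at Dark 0 h and the first at Dark 4 h were the highest of the 18 GMUCT libraries, and every Dark 8 h replicate was below every Dark 0 h and Dark 4 h replicate. The log2 change of the ratio from Light 8 h to Dark 0 h was 2.05 ± 0.69 (SE, edgeR adjusted p = 0.0181), a call lost without each of mRNA Dark 0 h replicate 1, mRNA Light 8 h replicate 1 and GMUCT Dark 0 h replicate 3 (adjusted p of 0.0509 to 0.234). Without GMUCT Dark 0 h replicate 3 that log2 change was 0.91.

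**Figure D2:**
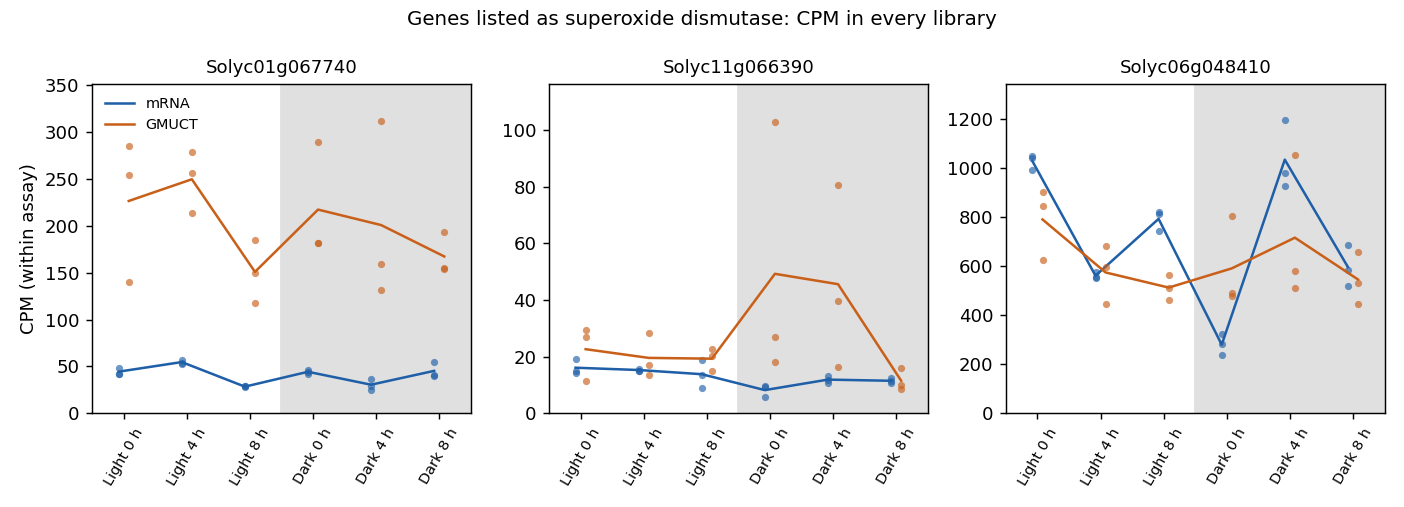
CPM of the 3 genes listed as superoxide dismutases at 6 times in mRNA and in GMUCT, with points for replicates, lines joining the means of 3 replicates and shading for the dark phase. Solyc06g048410 mRNA had its lowest group at Dark 0 h (279.6 ± 42.5 CPM), and Solyc11g066390 GMUCT had 1 replicate at 103 CPM there.

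Among the ascorbate peroxidases, Solyc11g018550 alternated between high and low mRNA at consecutive times. It stood at 116, 90.9 and 95.3 CPM at Light 4 h, at 168, 172 and 180.2 CPM at Light 8 h and at 76.2, 89.3 and 60.6 CPM at Dark 0 h. It was 119, 139 and 146 CPM at Dark 4 h, 68.3, 81.0 and 57.9 CPM at Dark 8 h and 109, 103 and 105 CPM at Light 0 h. Light 8 h was above all other times in every replicate, and no replicate at Dark 4 h overlapped Dark 0 h or Dark 8 h. The log2 change was 0.78 ± 0.16 (SE, edgeR adjusted p = 0.00184) from Light 4 h to Light 8 h and -1.20 ± 0.16 (SE, edgeR adjusted p = 8.4e-06) to Dark 0 h. It was 0.83 ± 0.16 (SE, edgeR adjusted p = 0.00106) to Dark 4 h and -0.96 ± 0.16 (SE, edgeR adjusted p = 0.000522) to Dark 8 h. The comparison of Dark 8 h with Light 8 h gave -1.33 ± 0.16 (SE, edgeR adjusted p = 2.13e-06), the largest fall of any of the 4 ascorbate peroxidases between times 12 h apart.

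GMUCT of Solyc11g018550 followed another order. Replicates were 45.6, 50.9 and 54.9 CPM at Light 4 h, 63.3, 61.9 and 62.4 CPM at Light 8 h and 94.6, 74.4 and 83.5 CPM at Dark 0 h, and 85.2, 70.6 and 105 CPM at Dark 4 h. All replicates at Light 4 h lay below those at the 3 other times named here, and Dark 0 h lay above Light 8 h, where the mRNA was highest. GMUCT was higher at Dark 4 h than at Light 4 h by 0.78 ± 0.16 (SE, edgeR adjusted p = 0.00145) in log2. The correlation of the 6 group means between the assays was -0.06, given as a description. The ratio rose from Light 8 h to Dark 0 h by 1.57 ± 0.22 (SE, edgeR adjusted p = 2.38e-06). It was lower at Dark 4 h than at Dark 0 h, with a change of -0.75 ± 0.22 (SE, edgeR adjusted p = 0.0120). It was also higher at Dark 8 h than at Light 8 h, by 1.41 ± 0.22 (SE, edgeR adjusted p = 7.01e-05).

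Solyc06g060260, another ascorbate peroxidase, was high in mRNA through the later light. It was 58.1, 51.5 and 52.4 CPM at Light 0 h, 94.7, 87.1 and 89.8 CPM at Light 4 h and 128, 67.2 and 102 CPM at Light 8 h. In the dark it was 55.9, 56.1 and 50.6 CPM at Dark 0 h, 47.9, 71.7 and 54.5 CPM at Dark 4 h and 49.9, 47.4 and 41.3 CPM at Dark 8 h. Light 4 h did not overlap Light 0 h or any dark group, and Light 8 h was the most variable of its groups, with a low second replicate. The mRNA rose by 0.74 ± 0.19 (SE, edgeR adjusted p = 0.00320) in log2 from Light 0 h to Light 4 h. It fell from Light 8 h to Dark 0 h, with a change of -0.87 ± 0.19 (SE, edgeR adjusted p = 0.00103). Dark 8 h against Light 8 h gave -1.10 ± 0.19 (SE, edgeR adjusted p = 9.54e-05). Its GMUCT level stayed between 55.4 and 67.1 CPM in group means, a range of 0.27 in log2 that 3.03% of all genes did not exceed (edgeR adjusted p among the times = 0.466). The ratio was higher at Dark 0 h than at Light 8 h by 1.09 ± 0.23 (SE, edgeR adjusted p = 0.000412). It was higher at Dark 8 h than at Light 8 h by 1.27 ± 0.23 (SE, edgeR adjusted p = 0.000345).

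Solyc06g005160 and Solyc06g005150 carry neighbouring identifiers and had the most alike mRNA profiles of any pair among the 10 genes, with r = 0.78 over 18 mRNA libraries, which share the same samples and scaling. If these copies are near identical, reads that match both would be left out of both, so both levels are uncertain. Solyc06g005160 mRNA was 91.3, 83.7 and 98.1 CPM at Light 0 h, 147, 138 and 148 CPM at Light 4 h and 113, 63.4 and 97.8 CPM at Light 8 h. In the dark it was 65.5, 63.5 and 70.7 CPM at Dark 0 h, 101, 133 and 84.6 CPM at Dark 4 h and 93.0, 92.0 and 80.3 CPM at Dark 8 h. It was highest at Light 4 h, with no overlap with any other time, and Light 8 h overlapped Dark 0 h through a low second replicate. It rose from Light 0 h to Light 4 h by 0.67 ± 0.19 (SE, edgeR adjusted p = 0.00656) in log2. The fall to Light 8 h was -0.66 ± 0.19 (SE, edgeR adjusted p = 0.0189), a call lost without each of mRNA Light 4 h replicates 1 and 3 and mRNA Light 8 h replicate 2 (adjusted p of 0.0543 to 0.103). The rise from Dark 0 h to Dark 4 h was 0.67 ± 0.19 (SE, edgeR adjusted p = 0.0139), a call lost without each of mRNA Dark 0 h replicate 1 and mRNA Dark 4 h replicate 2 (adjusted p of 0.0555 to 0.125).

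Solyc06g005150 mRNA was 191, 286 and 208 CPM at Light 0 h, 362, 335 and 324 CPM at Light 4 h and 275, 212 and 249.9 CPM at Light 8 h. It was 138, 153 and 195 CPM at Dark 0 h, 248, 232 and 249 CPM at Dark 4 h and 206, 269 and 242 CPM at Dark 8 h. Light 4 h was again the highest time, without overlap with the others, and every Dark 0 h replicate lay below those of Light 8 h, Dark 4 h and Dark 8 h. Its rise to Light 4 h was 0.58 ± 0.17 (SE, edgeR adjusted p = 0.0108), a call lost without mRNA Light 0 h replicate 1 (adjusted p of 0.0567). Its fall from Light 8 h to Dark 0 h was -0.60 ± 0.18 (SE, edgeR adjusted p = 0.00930), a call lost without each of mRNA Dark 0 h replicate 1 and mRNA Light 8 h replicate 1 (adjusted p of 0.0641 to 0.0654). Its rise to Dark 4 h was 0.59 ± 0.18 (SE, edgeR adjusted p = 0.0210), a call lost without each of mRNA Dark 0 h replicates 1 and 2 and mRNA Dark 4 h replicates 1 and 3 (adjusted p of 0.0568 to 0.102) and also in a fit of only these 2 times (0.0576).

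In GMUCT, Solyc06g005160 passed the test among the times and Solyc06g005150 did not. Solyc06g005160 GMUCT was 617, 604 and 634 CPM at Light 4 h, 355, 342 and 358 CPM at Light 8 h and 411, 534 and 636 CPM at Dark 0 h, and 427, 399.9 and 339 CPM at Dark 4 h. Light 4 h lay above Light 8 h and Dark 4 h in every replicate, while Dark 0 h overlapped Light 4 h. It fell from Light 4 h to Light 8 h, with a log2 change of -0.81 ± 0.16 (SE, edgeR adjusted p = 0.00299). It was lower at Dark 4 h than at Light 4 h, with -0.67 ± 0.16 (SE, edgeR adjusted p = 0.00495). Its rise from Light 8 h to Dark 0 h was 0.58 ± 0.16 (SE, edgeR adjusted p = 0.0353), a call lost without each of GMUCT Dark 0 h replicates 2 and 3, GMUCT Light 4 h replicate 2 and GMUCT Light 8 h replicates 1, 2 and 3 (adjusted p of 0.0501 to 0.184) and also in a fit of only these 2 times (0.0952). Solyc06g005150 GMUCT group means stayed between 86.4 and 112 CPM (edgeR adjusted p among the times = 0.129). The ratio rose from Light 8 h to Dark 0 h for both, by 0.99 ± 0.26 (SE, edgeR adjusted p = 0.00290) for Solyc06g005160 and by 0.92 ± 0.22 (SE, edgeR adjusted p = 0.00140) for Solyc06g005150. Both ratios fell to Dark 4 h, with changes of -1.07 ± 0.26 (SE, edgeR adjusted p = 0.00256) and -0.89 ± 0.22 (SE, edgeR adjusted p = 0.00342). Whether these 2 genes differ from each other was not tested.

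**Figure D3:**
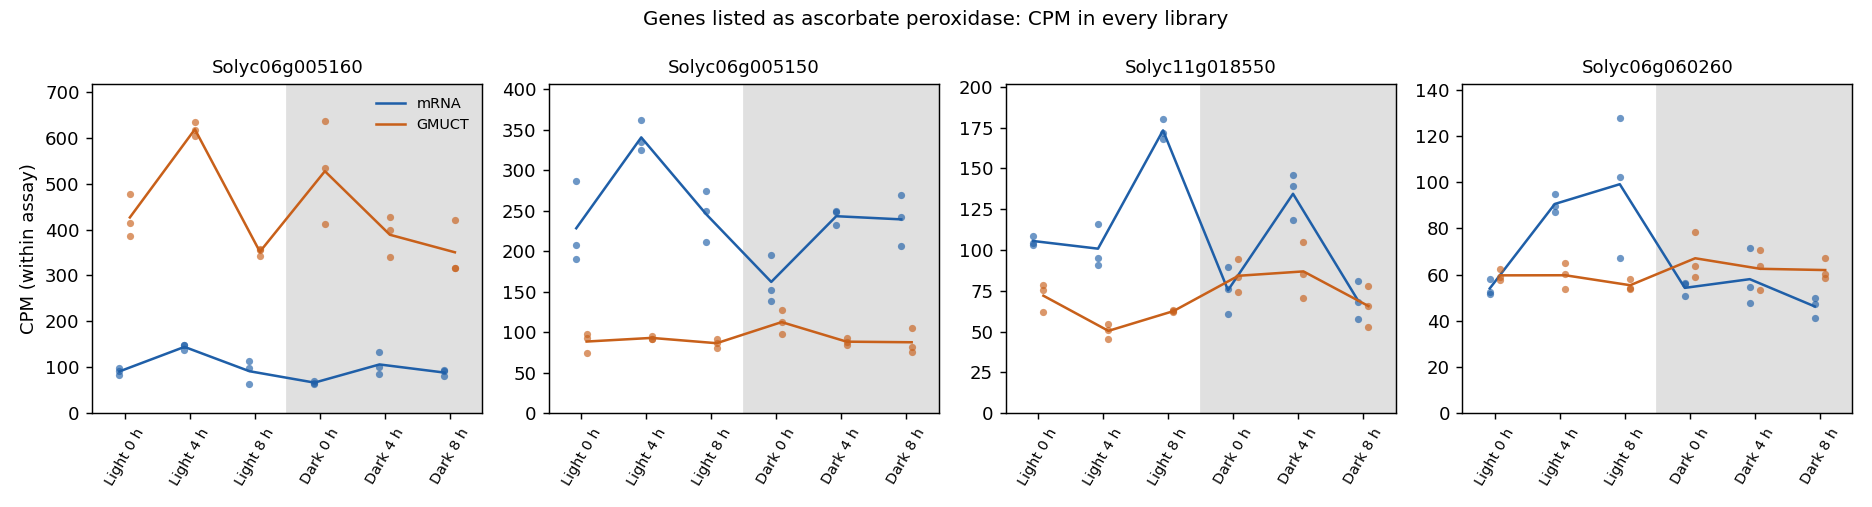
CPM of the 4 genes listed as ascorbate peroxidases at 6 times in mRNA and in GMUCT, with points for replicates, lines joining the means of 3 replicates and shading for the dark phase. Solyc11g018550 mRNA alternates from Light 4 h to Dark 8 h, and Solyc06g060260 GMUCT shows the narrowest range (0.27 in log2).

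The catalases Solyc12g094620 and Solyc02g082760 had their highest levels at different times of the day. Solyc12g094620 mRNA was 440.3, 315 and 517 CPM at Light 0 h, 873, 894 and 802 CPM at Light 4 h and 1672, 951 and 1538 CPM at Light 8 h. It was 2361, 1467 and 1686 CPM at Dark 0 h, 1586, 1605 and 1459 CPM at Dark 4 h and 1022, 495 and 649 CPM at Dark 8 h. The Light 0 h replicates overlapped those of Dark 8 h and lay below those of every other time. Dark 0 h had the highest group mean and overlapped Dark 4 h and Light 8 h. Dark 0 h was above Light 0 h by 2.12 ± 0.27 (SE, edgeR adjusted p = 1.07e-05) on the log2 scale, or 4.33-fold. The rise from Light 0 h to Light 4 h was 1.01 ± 0.27 (SE, edgeR adjusted p = 0.00417). The fall from Dark 4 h to Dark 8 h was -1.10 ± 0.27 (SE, edgeR adjusted p = 0.00893). From highest to lowest, the group means ran Dark 0 h, Dark 4 h, Light 8 h, Light 4 h, Dark 8 h, Light 0 h. In that order no 2 neighbours differed past the threshold (edgeR adjusted p from 0.0815 to 0.664).

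Solyc02g082760 mRNA was highest in the first hours of light. It stood at 1104, 1446 and 1349.5 CPM at Light 0 h, at 1849, 1594 and 1846 CPM at Light 4 h and at 899, 779 and 889 CPM at Light 8 h. In the dark it was 526, 424 and 466 CPM at Dark 0 h, 546, 594 and 589 CPM at Dark 4 h and 566, 708 and 614 CPM at Dark 8 h. Light 0 h and Light 4 h lay above Light 8 h, and Light 8 h above all 3 dark groups, with no overlap. The log2 change was -1.04 ± 0.16 (SE, edgeR adjusted p = 0.000101) from Light 4 h to Light 8 h and -0.86 ± 0.16 (SE, edgeR adjusted p = 0.000235) on to Dark 0 h. Back from Dark 8 h to Light 0 h it was 1.05 ± 0.16 (SE, edgeR adjusted p = 0.000414). It was lower at Dark 0 h than at Light 0 h, with -1.46 ± 0.16 (SE, edgeR adjusted p = 1.73e-06). At Dark 4 h it was lower than at Light 4 h, with -1.61 ± 0.16 (SE, edgeR adjusted p = 1.95e-07). The rise from Light 0 h to Light 4 h was 0.44 ± 0.16 (SE, edgeR adjusted p = 0.0285), a call lost without each of mRNA Light 0 h replicate 1 and mRNA Light 4 h replicate 1 (adjusted p of 0.0898 to 0.115). Among neighbours in the order of its levels, Dark 8 h against Dark 4 h (edgeR adjusted p = 0.646) and Dark 4 h against Dark 0 h (0.201) did not pass the threshold.

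**Figure D4:**
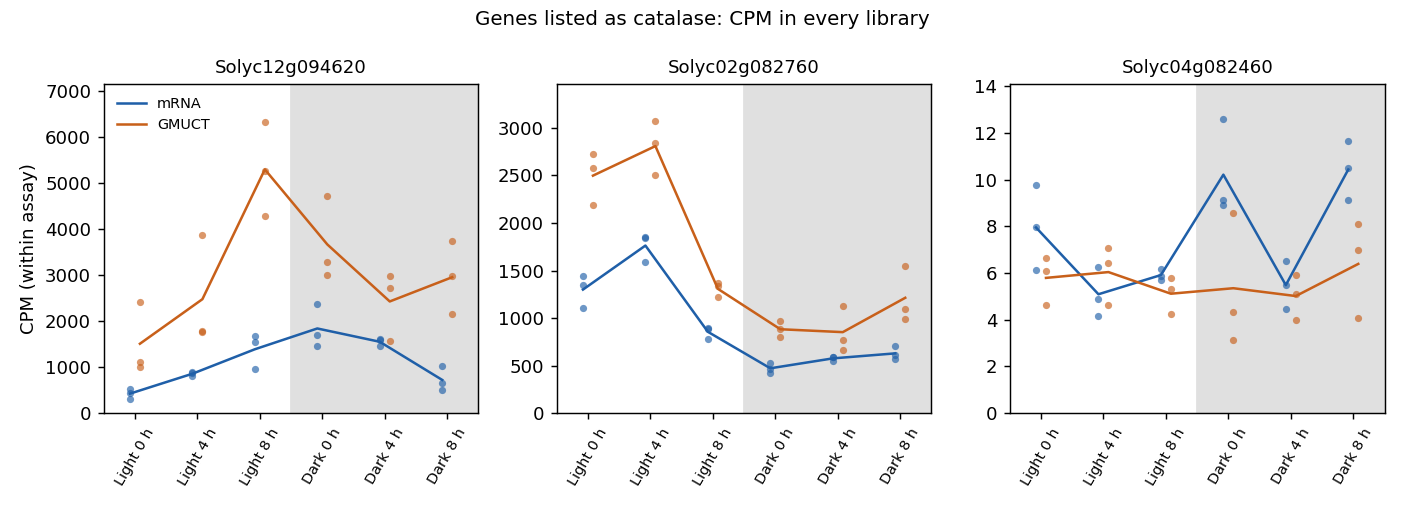
CPM of the 3 genes listed as catalases at 6 times in mRNA and in GMUCT, with points for replicates, lines joining the means of 3 replicates and shading for the dark phase. Solyc02g082760 is highest at Light 4 h in both assays, and Solyc12g094620 at Dark 0 h in mRNA and at Light 8 h in GMUCT.

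GMUCT of Solyc02g082760 ran with its mRNA. Replicates were 2582, 2727 and 2186 CPM at Light 0 h, 2506, 2844 and 3076 CPM at Light 4 h and 1334, 1364 and 1225 CPM at Light 8 h. They were 966, 881 and 801 CPM at Dark 0 h, 769, 659 and 1129 CPM at Dark 4 h and 994, 1095 and 1552 CPM at Dark 8 h. Light 0 h and Light 4 h lay above all other times in every replicate. GMUCT changed by -1.10 ± 0.21 (SE, edgeR adjusted p = 0.00183) in log2 from Light 4 h to Light 8 h. Its change from Dark 8 h to Light 0 h was 1.04 ± 0.21 (SE, edgeR adjusted p = 0.00470), a call lost in a fit of only these 2 times (adjusted p of 0.0687). It was lower at Dark 0 h than at Light 0 h, with -1.50 ± 0.21 (SE, edgeR adjusted p = 2.82e-05). At Dark 4 h it was lower than at Light 4 h, with -1.72 ± 0.21 (SE, edgeR adjusted p = 1.34e-05). Over the 6 group means its assays correlated at r = 0.97, a description only, and its ratio was not called among the times (edgeR adjusted p = 0.375).

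GMUCT of Solyc12g094620 was 1001, 1114 and 2406 CPM at Light 0 h, 3877, 1757 and 1786 CPM at Light 4 h and 4283, 5265 and 6321 CPM at Light 8 h. It was 3279.6, 4716 and 2991 CPM at Dark 0 h, 2715, 2984 and 1574 CPM at Dark 4 h and 3745, 2966 and 2142 CPM at Dark 8 h. The spread between replicates was wide, with the first Light 4 h replicate far above the other two. The Light 8 h replicates lay above those of every other time except Dark 0 h, which they overlapped. Dark 0 h was above Light 0 h by 1.28 ± 0.39 (SE, edgeR adjusted p = 0.0127), a call lost without each of GMUCT Dark 0 h replicate 2 and GMUCT Light 0 h replicates 1 and 2 (adjusted p of 0.0531 to 0.0620). No step between consecutive times was called for this gene in GMUCT. At no time pair among the steps was its ratio called either, the largest step being Dark 8 h against Dark 4 h, at 1.41 ± 0.48 (SE, edgeR adjusted p = 0.104).

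The third catalase, Solyc04g082460, was low in counts and, from Light 8 h to Dark 8 h, moved in mRNA against Solyc11g018550 and Solyc06g048410. Its mRNA was 6.12, 7.97 and 9.77 CPM at Light 0 h, 4.87, 6.25 and 4.15 CPM at Light 4 h and 6.16, 5.71 and 5.87 CPM at Light 8 h. It was 9.12, 8.92 and 12.6 CPM at Dark 0 h, 5.47, 6.50 and 4.48 CPM at Dark 4 h and 11.7, 9.13 and 10.5 CPM at Dark 8 h. All replicates at Dark 0 h and Dark 8 h lay above those at Light 8 h and Dark 4 h. From Light 0 h to Light 4 h the log2 change was -0.64 (edgeR adjusted p = 0.0277), and Solyc06g048410 fell there too. That call for Solyc04g082460 was lost in 9 of 23 alternatives (adjusted p up to 0.2145). From Dark 0 h to Dark 4 h the log2 change was -0.90 ± 0.23 (SE, edgeR adjusted p = 0.00843). Dark 8 h was above Light 8 h by 0.82 ± 0.23 (SE, edgeR adjusted p = 0.00552). The rise from Light 8 h to Dark 0 h was 0.78 ± 0.23 (SE, edgeR adjusted p = 0.00885), a call lost without mRNA Dark 0 h replicate 3 (adjusted p of 0.0540). That from Dark 4 h to Dark 8 h was 0.93 ± 0.23 (SE, edgeR adjusted p = 0.00974), a call lost without mRNA Dark 4 h replicate 3 (adjusted p of 0.0549). Its GMUCT group means stayed between 5.01 and 6.39 CPM and were not called among the times (edgeR adjusted p = 0.881).

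The balance of the catalases Solyc12g094620 and Solyc02g082760 shifted through the day. Within a gene pair transcript length is the same at all times, so the log2 ratio of Solyc12g094620 to Solyc02g082760 CPM is comparable between times, though its absolute level is not interpretable without lengths. In mRNA that log2 ratio (mean ± SD, n = 3) began at -1.64 ± 0.49 for Light 0 h, moved to -1.04 ± 0.19 for Light 4 h and reached 0.66 ± 0.32 for Light 8 h. Dark 0 h then gave 1.94 ± 0.20, Dark 4 h gave 1.43 ± 0.11 and Dark 8 h gave 0.14 ± 0.69. In GMUCT it began at -0.84 ± 0.85 for Light 0 h, moved to -0.28 ± 0.79 for Light 4 h and reached 2.00 ± 0.34 for Light 8 h. There, Dark 0 h gave 2.03 ± 0.35, Dark 4 h gave 1.49 ± 0.90 and Dark 8 h gave 1.27 ± 0.74. Both assays were lowest at Light 0 h and highest at Dark 0 h, and the replicates of these groups did not overlap in either assay. The balance itself was not tested.

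A 24 h wave, fitted with hours counted from Light 0 h, described the 10 mRNAs unequally. The test for a 24 h cosine called 9 mRNAs, against 68.2% of all genes, and left out the catalase Solyc04g082460 (edgeR adjusted p = 0.0514). That gene passed in 6 of 22 alternatives, each the removal of 1 library, which were mRNA Dark 0 h replicate 3, mRNA Dark 8 h replicate 2, mRNA Light 0 h replicates 1, 2 and 3 and mRNA Light 4 h replicate 2 (adjusted p of 0.0298 to 0.0464). The call for Solyc06g005160 (0.0185) was lost without each of mRNA Dark 4 h replicates 1 and 3, mRNA Light 0 h replicate 3 and mRNA Light 4 h replicate 3 (adjusted p of 0.0533 to 0.0570). A test of departure from that wave, added after the data had been seen, called 8 mRNAs, all but Solyc12g094620 and Solyc11g066390, against 43.3% of all genes. The smallest adjusted p-values for departure in mRNA were those of Solyc06g048410 (4.48e-07) and Solyc11g018550 (1.9e-05). The departure of Solyc06g060260 (0.0462) was lost without each of mRNA Dark 0 h replicates 1, 2 and 3, mRNA Dark 4 h replicates 2 and 3, mRNA Dark 8 h replicates 1 and 2, mRNA Light 0 h replicates 1, 2 and 3, mRNA Light 4 h replicates 1, 2 and 3 and mRNA Light 8 h replicate 3 (adjusted p of 0.0526 to 0.126) and also with relative log expression scaling (0.0527), with no filter on low counts (0.0553) and with a replicate block (0.0578). The fitted peak of Solyc12g094620 was at 11.88 ± 0.466 h (SE) in mRNA and 10.54 ± 1.19 h in GMUCT. That of Solyc02g082760 was at 2.74 ± 0.365 h in mRNA and 2.35 ± 0.348 h in GMUCT. The GMUCT peak minus the mRNA peak was -1.34 ± 1.28 h for Solyc12g094620 and -0.39 ± 0.504 h for Solyc02g082760, less than 2 standard errors each. Solyc06g060260 mRNA had its fitted peak at 6.52 ± 0.753 h. In GMUCT the 24 h test called 3 genes, against 62.7% of all genes, the catalases Solyc12g094620 and Solyc02g082760 and the ascorbate peroxidase Solyc11g018550, whose peak was at 15.37 ± 1.00 h there. The mRNA of Solyc11g018550, which departed from the wave, had its fitted peak at 7.68 ± 2.08 h. Its GMUCT peak minus its mRNA peak was 7.69 ± 2.31 h, more than 2 standard errors. So were the differences of Solyc06g005150 (9.10 ± 2.71 h), Solyc06g060260 (9.50 ± 2.61 h) and Solyc11g066390 (10.82 ± 2.27 h), whose GMUCT was not called in this test. The height of their fitted GMUCT waves was 0.10 ± 0.06, 0.07 ± 0.05 and 0.57 ± 0.30 in log2 (SE), in that order. For Solyc11g018550 mRNA it was 0.29 ± 0.16. Each is less than 2 standard errors, where a peak time and its SE are poorly defined. These differences therefore do not show a shift between the assays. Differences for the remaining genes were below 2 standard errors. In that GMUCT test Solyc06g005160 (edgeR adjusted p = 0.0503) was also called with DESeq2 (adjusted p of 0.0126) and with relative log expression scaling (0.0375). It was called too without each of GMUCT Dark 0 h replicates 1 and 3, Dark 4 h replicate 1 and Dark 8 h replicate 1. Solyc11g066390 (0.0545) gained the call without each of GMUCT Dark 0 h replicates 1 and 2, Dark 4 h replicate 2, Dark 8 h replicate 3 and Light 4 h replicate 2. Its smallest adjusted p there was 0.0193. The departure test in GMUCT called only Solyc06g005160 (0.0142), against 8.1%, a call lost without each of GMUCT Light 8 h replicates 1, 2 and 3 (adjusted p of 0.0515 to 0.0599).

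The GMUCT to mRNA ratio was higher at Dark 0 h than at Light 8 h for 6 of the 10 genes. It rose for the 4 ascorbate peroxidases, Solyc06g048410 and Solyc11g066390, and for none of the catalases. Whether the classes differ was not tested. Over all genes, 40% were called and 19.9% were called higher, 20.2% lower. The median log2 change over the 10 genes was 0.95 in the ratio, -0.68 in mRNA and 0.33 in GMUCT, and over all genes it was -0.03, -0.02 and 0.00. From Dark 0 h to Dark 4 h the ratio fell for 4 genes, Solyc06g005160, Solyc06g005150, Solyc11g018550 and Solyc06g048410, against 13.2% of all genes called lower and 26.5% in either direction. Against Light 0 h the ratio at Dark 0 h was higher for 5 genes, with 15.7% of all genes called higher, 17.4% lower and 33% in either direction. The calls fell to 1 in a fit of only these 2 times, to 2 without mRNA Light 0 h replicate 1 or GMUCT Light 0 h replicate 2, and to 3 without mRNA Light 0 h replicate 3 or GMUCT Dark 0 h replicate 3. The call of Solyc11g066390 against Light 8 h was lost without each of mRNA Dark 0 h replicate 1, mRNA Light 8 h replicate 1 and GMUCT Dark 0 h replicate 3 (adjusted p of 0.0509 to 0.234). Dark 0 h held the highest ratio for 5 of the 10 genes and for 30.4% of all genes. When Dark 0 h was left out, the ratio changed among the remaining times for 2 genes, Solyc11g018550 (edgeR adjusted p = 0.000193) and Solyc06g060260 (0.000428), against 34.8% of all genes. The share of GMUCT reads placed at several positions was 8.60 to 10.1% at Light 8 h and 11.9 to 26.6% at Dark 0 h, and its part in these ratios was not tested. The 24 h test of the ratio called 4 genes, Solyc06g005150, Solyc11g018550, Solyc06g060260 and Solyc11g066390, against 44.5% of all genes. The departure test called 5, the 4 ascorbate peroxidases and Solyc06g048410, against 33.5%. The departure of Solyc06g060260 in the ratio (0.0396) was lost without each of mRNA Dark 0 h replicates 1, 2 and 3, mRNA Dark 4 h replicates 2 and 3, mRNA Dark 8 h replicate 2, mRNA Light 0 h replicates 2 and 3, mRNA Light 4 h replicates 1, 2 and 3, mRNA Light 8 h replicates 1 and 3, GMUCT Dark 0 h replicate 1, GMUCT Dark 4 h replicate 2, GMUCT Light 0 h replicate 1 and GMUCT Light 8 h replicates 1 and 3 (adjusted p of 0.0549 to 0.116) and also with no filter on low counts (0.0578) and with a replicate block (0.0510). TMM scaling was done within each assay for the levels and over all 36 libraries for the ratio tests. A ratio is therefore relative to the other genes in the same libraries.

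**Figure D5:**
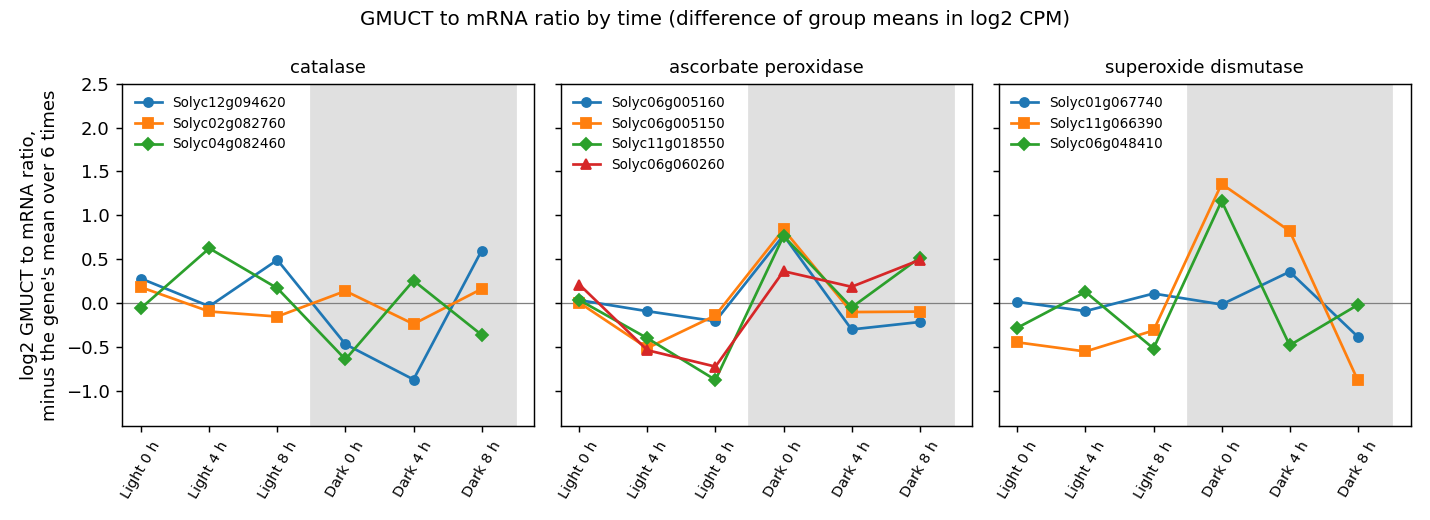
Log2 ratio of GMUCT to mRNA (difference of group means in log2 CPM) at 6 times, less each gene's mean over the times, for the catalases, ascorbate peroxidases and superoxide dismutases, with the dark phase shaded. The 4 ascorbate peroxidases lie above their own mean at Dark 0 h and below it at Light 8 h. So do the catalase Solyc02g082760 and the superoxide dismutases Solyc11g066390 and Solyc06g048410. The 3 catalases do not share a peak, and the ascorbate peroxidase Solyc06g060260 is highest at Dark 8 h, unlike the other ascorbate peroxidases.

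Few changes in GMUCT were called between consecutive times. There were 2 from Light 0 h to Light 4 h, against 30.6% of all genes, and 2 from Light 4 h to Light 8 h, against 13.4%. The second of these counts was 4 in a fit of only these 2 times. The first was 0 without GMUCT Light 0 h replicate 1 and 1 without Light 0 h replicate 2 or any 1 of the Light 4 h replicates. To Light 4 h, Solyc06g005160 changed by 0.54 ± 0.16 (SE, edgeR adjusted p = 0.0202), a call lost without each of GMUCT Light 0 h replicates 1 and 2 and GMUCT Light 4 h replicate 3 (adjusted p of 0.0599 to 0.0865). Solyc11g018550 changed by -0.51 ± 0.16 (SE, edgeR adjusted p = 0.0235), a call lost without each of GMUCT Light 0 h replicates 1 and 3 and GMUCT Light 4 h replicates 1 and 2 (adjusted p of 0.0576 to 0.0873). From Light 8 h to Dark 0 h there was 1, against 8.67%, with 6 at an unadjusted p under 0.05, 3 with DESeq2 and 0 in a fit of only these 2 times. It was also 0 without each of Dark 0 h replicates 2 and 3, Light 4 h replicate 2 and Light 8 h replicates 1, 2 and 3. From Dark 8 h to Light 0 h there was 1, against 6.25%, with 0 in a fit of only these 2 times and 2 without Light 0 h replicate 3. From Dark 0 h to Dark 4 h the count was 0 with edgeR, 2 at an unadjusted p under 0.05 and 2 with DESeq2, against 25.8% of all genes. It was also 2 with relative log expression scaling and without each of Dark 0 h replicate 1 and Dark 8 h replicates 1 and 3. From Dark 4 h to Dark 8 h it was 0 with edgeR, 3 unadjusted and 1 with DESeq2, against 4.19%, and 1 without Dark 0 h replicate 3 or Dark 4 h replicate 2. In the ratio, 1 gene was called from Light 0 h to Light 4 h, against 12.8% of all genes. That call, for Solyc06g060260, was lost without each of mRNA Light 0 h replicate 2, mRNA Light 4 h replicate 3 and GMUCT Light 4 h replicate 1 (adjusted p of 0.0501 to 0.0785). None (0) was called from Light 4 h to Light 8 h, from Dark 4 h to Dark 8 h or from Dark 8 h to Light 0 h with edgeR or with DESeq2, against 5.59, 3.33 and 0.866% of all genes, and 0, 4 and 1 had an unadjusted p under 0.05. The ratio 12 h apart was called for 1 gene at Dark 4 h against Light 4 h (18.6% of all genes), Solyc06g060260, a call lost without each of mRNA Dark 4 h replicates 1 and 3, mRNA Light 4 h replicates 1 and 3, GMUCT Dark 4 h replicate 3 and GMUCT Light 4 h replicate 1 (adjusted p of 0.0568 to 0.106). It was called for 2 genes at Dark 8 h against Light 8 h (17.1%), Solyc11g018550 and Solyc06g060260.

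Several pairs of genes ran against each other over the 18 libraries of an assay. Solyc12g094620 and Solyc02g082760 correlated at r = -0.58 in mRNA and -0.53 in GMUCT. Solyc11g018550 correlated at -0.71 with Solyc01g067740 and at -0.72 with Solyc04g082460 in mRNA. Solyc12g094620 and Solyc06g048410 correlated at -0.76 in GMUCT, although the GMUCT of Solyc06g048410 was not called among the times (edgeR adjusted p = 0.275). Correlations over libraries also hold differences between replicates of a time, so this value does not show opposed daily profiles. These values describe libraries that share a light regime and a scaling, and no test was made. Among 10789 other genes with a mean of at least 10 CPM, the mRNA most like Solyc12g094620 over 18 libraries was that of Solyc01g111520 (r = 0.93, and 0.79 in GMUCT). The closest to Solyc02g082760 was gene:Solyc10g075160.1 (r = 0.97 and 0.87). Solyc09g014900 was closest to Solyc04g082460 (r = 0.91 and 0.56). For Solyc12g094620 the second closest mRNA was almost as close (r = 0.9258 against 0.9271). For Solyc02g082760 and Solyc04g082460 the second had r = 0.96 and 0.88.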

How the data were processed

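The authors deposited unnormalised read counts for each gene in each library, in tables of 34075 identifiers and 5 counters of reads outside genes, which were left out. The submitters' processing notes name cutadapt, the aligner STAR 2.4.2a and the counter HTSeq. Genome build, settings and strand handling are not given in the sources used, so a gene and an overlapping antisense gene cannot be told apart.

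Groups came from the sample labels. Each assay's 18 libraries were fitted with edgeR 4.0.16 in R 4.3.3 (filterByExpr, TMM scaling, quasi-likelihood F-tests) over all genes, with Benjamini-Hochberg adjustment and a threshold of 0.05, and the ratio as the interaction of assay and time over 36 libraries. The 24 h test placed groups at 0, 4, 8, 12, 16 and 20 h. The prior count of log2 CPM was 2. The SE given for a change is its absolute size divided by the square root of F. Alternatives were DESeq2 1.42.0, relative log expression scaling, no low-count filter, fits of 2 times, a replicate block and leaving out each library. Tests were tried on simulated data. Replicate numbers showed no sign of pairing samples, though with 3 replicates this check cannot exclude it. Correlations of deviations between libraries of the same number ran from -0.33 to 0.32 in mRNA and from -0.45 to 0.48 in GMUCT. Between the assays at the same time they ran from -0.24 to 0.15. No libraries were duplicates, the smallest chi-square per degree of freedom between replicates being 6.48.

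Named genes were the 10 members and, for each catalase, the most correlated other mRNA. The members and lists were chosen with earlier results of these data known. None (0) of the identifiers matched the 41476 reference genes, so pathway lists, leaf markers and sequences were not used here.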

Additional observations from a re-analysis of the deposited data

Results flagged for a closer look

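For the ascorbate peroxidase Solyc06g005150, mRNA and GMUCT moved in opposite directions between Light 0 h and Dark 0 h. The log2 change was -0.49 ± 0.17 (SE, edgeR adjusted p = 0.0332) in mRNA and 0.35 ± 0.14 (SE, edgeR adjusted p = 0.0486) in GMUCT, and the interaction of assay and time gave a change of 0.75 ± 0.22 in the ratio (edgeR adjusted p = 0.00936). The mRNA replicates were 191, 286 and 208 CPM at Light 0 h and 138, 153 and 195 CPM at Dark 0 h, and those of GMUCT were 93.0, 74.2 and 98.1 CPM and 97.7, 112 and 127 CPM. The groups overlapped in both assays. The mRNA call was lost in 14 and the GMUCT call in 16 of 23 alternatives, and the ratio call only in the fit of these 2 times alone (0.0609). Reads that match both this gene and the neighbouring identifier Solyc06g005160 would be left out of both, and their part in the values was not tested.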

How the results depend on the processing

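No called change between consecutive times or between times 12 h apart reversed its direction under any alternative tried. The remaining pairs of times were not refitted under the alternatives. Direction was not followed for changes that were not called, and the tests among all times, of the 24 h wave and of departure have none. Counts of called members among all times, in the 24 h and departure tests, and summed over all steps or all pairs 12 h apart stayed within 1.5 times the reported value in mRNA. In other assays some moved, and 3 mRNA counts of single steps fell, as given with the steps. With DESeq2 the GMUCT changes between consecutive times rose from 6 to 12. The GMUCT 24 h count ranged from 3 to 5 when single libraries were left out, being 5 without GMUCT Dark 0 h replicate 1. The GMUCT departure count ranged from 0 to 1, being 0 without any 1 of the Light 8 h replicates. Without Dark 0 h the ratio changed among the times for 2 genes in place of 6. The ratio count for times 12 h apart was 4 in place of 8 in fits of only the times compared, and ranged from 5 to 9 when single libraries were left out, being 5 without mRNA Light 0 h replicate 1 or GMUCT Light 0 h replicate 2. The cause of these shifts was not tested. Replicate numbers showed no sign of pairing samples, and in a fit with a replicate block the mRNA call of Solyc06g048410 between Light 4 h and Light 8 h (adjusted p = 0.0554) and the GMUCT call of Solyc11g066390 among the times (0.0582) were lost. So were those of Solyc06g048410 mRNA between Dark 8 h and Light 8 h (0.0565), Solyc06g005160 ratio between Dark 0 h and Light 0 h (0.0560) and Solyc06g060260 departure in mRNA (0.0578) and in the ratio (0.0510), while the ratio of Solyc12g094620 among the times gained a call (0.0483). Of 136 called comparisons of single genes, without the pairs of times that were not refitted, 45 lost the call under at least 1 alternative. Of 39 tests among all times, for a 24 h wave or for departure that were not called, 8 gained a call. Comparisons of 2 times that were not called were not followed gene by gene, so gains there are not in this count. The lowest count of any member was 35, for Solyc04g082460 in an mRNA library.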
